A study of Mus musculus with 26 samples.

Results

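A pair of mouse epiblast stem cell (EpiSC) cultures grown in the same medium, AFX, was compared by the places on the autosomes where their chromatin was open. The labels name the cultures EpiSC (AFX)1, at passage 14, and EpiSC (AFX)2, at passage 16, with 3 libraries each. The 7500 autosomal peaks with the strongest peak-calling p-values were kept from each of the 6 lists, and overlapping peaks were merged into 13057 union regions. A region was held by a list if a kept peak overlapped it by 1 bp. All 3 (AFX)1 lists and no (AFX)2 list held 241 regions, or 1.85% of the union regions. All 3 (AFX)2 lists and no (AFX)1 list held 331, or 2.54%. These 572 line-only regions are described here, beside 3737 regions (28.6%) held by all 6 lists. Over the 26 lists of the whole series as deposited, the autosomal union was 73383 regions.

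EpiSCs are cultured counterparts of the epiblast shortly before and during gastrulation, and they represent the primed state of pluripotency. Embryonic stem (ES) cells represent the earlier naive state, and formative stem (FS) cells are placed between these states. ATAC-seq reads open chromatin with the Tn5 transposase, which inserts sequencing adapters where DNA is not wrapped tightly in nucleosomes, so peaks gather at promoters and enhancers. Separate EpiSC lines are known to differ from one another in chromatin and expression even when they are grown alike.

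The first set of the series held 18 libraries. Beside the AFX libraries it held 3 libraries each of FS1 (passage 21) and FS2 (passage 29), both FS cells in A3XR medium, of EpiSCs in a medium named AF (passage 22) and of ES cells in 2iL (passage 16). A second set, marked Rd2, held 2 more libraries of EpiSCs in AFX at passage 16. Each library started from 50000 cells, and depth was unknown because peak lists carry no read counts. The labels give the numbers 1 and 2 after AFX, and sample titles that begin with AFX for (AFX)1 and E33 for (AFX)2, without saying what these stand for, so "line" is used here as a working name. They give no strain, sex, derivation or clone, and do not say whether the 3 libraries of a line came from separate cultures. Line, passage and culture history cannot be told apart. With 3 libraries against 3, no exact two-sided test can go below p = 0.1, and the line-only regions were chosen by the contrast itself, so everything below is description without tests.

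Promoters carry part of the difference. The 4 strongest line-only regions of each line that overlapped a promoter window are shown as the 250 bases before the transcription start, 5′ to 3′ on the gene's strand, from RefSeq (GRCm38.p6, which is mm10). Capitals mark GGGCGG, the core of the GC box bound by Sp1-family factors, and CCAAT, the CCAAT box bound by NF-Y, on either strand (CCGCCC and ATTGG on the other). These motifs are shown because their shares differed between the promoters of the 2 sets of regions. The (AFX)1-only promoters were Coq7 (chr7:118533357-118533606, minus strand, encoding an enzyme of coenzyme Q synthesis), Polr3gl (chr3:96594182-96594431, minus, an RNA polymerase III subunit), Gpx3 (chr11:54902604-54902853, plus, a secreted glutathione peroxidase) and Cep164 (chr9:45828664-45828913, minus, a protein of the ciliary base).
Coq7: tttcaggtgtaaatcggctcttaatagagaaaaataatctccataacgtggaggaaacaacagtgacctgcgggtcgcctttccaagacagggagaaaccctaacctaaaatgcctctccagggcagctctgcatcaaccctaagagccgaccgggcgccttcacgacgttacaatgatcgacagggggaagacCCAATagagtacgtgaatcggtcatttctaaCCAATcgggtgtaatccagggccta
Polr3gl: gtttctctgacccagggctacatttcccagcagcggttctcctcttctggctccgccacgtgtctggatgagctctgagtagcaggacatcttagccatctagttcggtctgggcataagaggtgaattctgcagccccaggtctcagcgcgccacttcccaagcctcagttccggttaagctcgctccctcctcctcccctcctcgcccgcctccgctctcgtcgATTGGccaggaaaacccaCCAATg
Gpx3: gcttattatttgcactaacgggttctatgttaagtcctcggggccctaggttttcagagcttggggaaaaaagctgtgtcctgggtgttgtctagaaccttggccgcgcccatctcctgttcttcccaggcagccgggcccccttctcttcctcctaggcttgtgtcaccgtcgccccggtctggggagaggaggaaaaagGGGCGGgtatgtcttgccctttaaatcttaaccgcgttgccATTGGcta
Cep164: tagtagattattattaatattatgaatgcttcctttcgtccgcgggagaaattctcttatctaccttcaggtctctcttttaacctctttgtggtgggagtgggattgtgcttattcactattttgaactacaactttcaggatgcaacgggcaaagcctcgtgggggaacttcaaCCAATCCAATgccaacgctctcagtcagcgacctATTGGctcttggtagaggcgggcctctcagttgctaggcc

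The (AFX)2-only promoters were Fgf4 (chr7:144861136-144861385, plus, the fibroblast growth factor through which pluripotent cells drive their own ERK signalling), the predicted genes Gm13648 (chr4:156059803-156060052, minus) and Gm30400 (chr10:78746880-78747129, plus), and Zfp184 (chr13:21944850-21945099, plus, a zinc finger gene).
Fgf4: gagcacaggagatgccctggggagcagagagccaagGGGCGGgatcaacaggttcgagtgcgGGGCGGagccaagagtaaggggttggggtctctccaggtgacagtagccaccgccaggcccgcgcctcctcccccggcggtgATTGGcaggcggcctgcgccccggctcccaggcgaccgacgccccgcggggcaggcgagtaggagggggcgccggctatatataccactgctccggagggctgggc
Gm13648: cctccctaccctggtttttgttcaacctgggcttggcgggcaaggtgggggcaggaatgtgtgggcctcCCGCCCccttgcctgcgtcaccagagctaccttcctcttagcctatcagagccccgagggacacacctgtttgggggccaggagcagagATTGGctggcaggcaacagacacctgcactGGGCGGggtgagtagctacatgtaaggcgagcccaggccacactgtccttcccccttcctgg
Gm30400: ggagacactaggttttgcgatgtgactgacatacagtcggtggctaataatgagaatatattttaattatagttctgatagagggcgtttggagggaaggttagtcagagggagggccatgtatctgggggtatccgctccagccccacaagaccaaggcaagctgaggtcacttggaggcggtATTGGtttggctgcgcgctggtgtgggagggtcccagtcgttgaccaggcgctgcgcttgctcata
Zfp184: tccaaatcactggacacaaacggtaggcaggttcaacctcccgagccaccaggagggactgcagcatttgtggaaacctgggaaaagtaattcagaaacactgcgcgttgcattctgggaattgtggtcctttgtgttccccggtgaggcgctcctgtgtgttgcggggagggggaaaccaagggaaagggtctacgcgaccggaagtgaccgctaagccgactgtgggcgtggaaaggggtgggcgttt

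Of these, Coq7 and Polr3gl had 2 CCAAT boxes and no GGGCGG, Cep164 had 3 CCAAT boxes and no GGGCGG, and Gpx3 had 1 of each. Fgf4 and Gm13648 had 2 GGGCGG and 1 CCAAT box, Gm30400 had 1 CCAAT box, and Zfp184 had neither. A match is a description of the letters and does not show that a factor was bound.

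Libraries of different lines were only slightly less alike than libraries of (AFX)1, and more clearly less alike than libraries of (AFX)2. The Jaccard index, the share of base pairs in either list that lie in both, ran from 0.495 to 0.519 between libraries of (AFX)1, from 0.553 to 0.559 between libraries of (AFX)2, and from 0.447 to 0.5 over the 9 pairs of libraries from different lines. The range of different lines overlapped that of (AFX)1: its most alike pair (0.5) exceeded the (AFX)1 pairs at 0.495 and 0.498. All (AFX)2 pairs lay above it. Regions held by 1 library alone were the most numerous outside the shared set, with 2126 in a single (AFX)1 list and 1507 in a single (AFX)2 list. The counts of line-only regions depend on all 3 lists being held. With any 1 (AFX)1 list left out, (AFX)1-only regions numbered 415 to 461, and with any 1 (AFX)2 list left out, (AFX)2-only regions numbered 514 to 535; without (AFX)1 replicate 3 the latter were 499. In the lists as deposited, at unequal length, the counts were 228 and 1186.

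**Figure D1:**
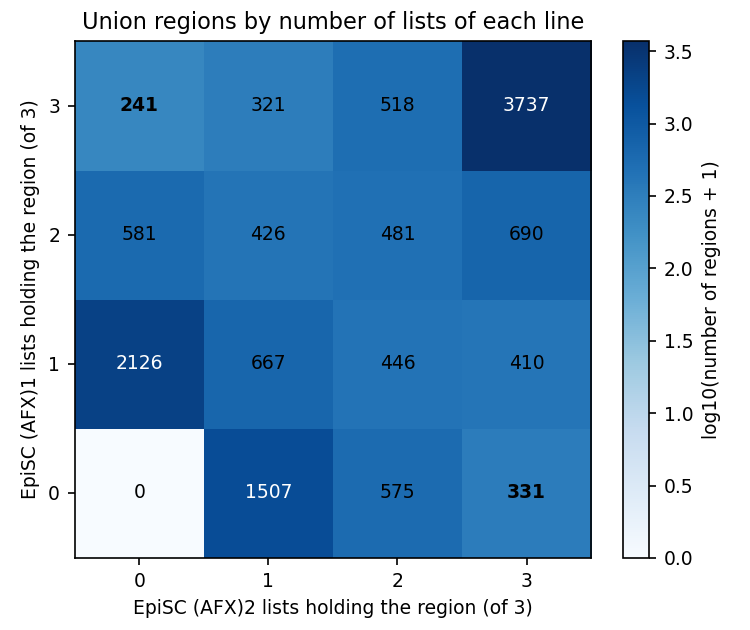
Number of union regions by how many of the 3 EpiSC (AFX)1 lists (vertical axis) and of the 3 EpiSC (AFX)2 lists (horizontal axis) held them. Colour gives log10 of the number plus 1. The corners in bold are the 241 and 331 line-only regions, beside 3737 in all 6 lists.

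Line-only mostly meant higher in the ranking, not present in one line alone. In the lists as deposited, 184 of the 241 (AFX)1-only regions had a weaker peak in all 3 (AFX)2 lists, and 8 had none in any. Of the 331 (AFX)2-only regions, 185 had a weaker peak in all 3 (AFX)1 lists, and 37 had none. Where a weaker peak was present, its best rank in the other line had a median of 9445 for (AFX)1-only regions and 9521 for (AFX)2-only regions, where rank 1 is the strongest autosomal peak of a list. It was within rank 10000, and so not far past the limit of 7500, in 142 (58.9%) of all 241 and 174 (52.6%) of all 331 regions. List length moved with this. The (AFX)2 lists held 24887 to 28764 autosomal peaks and overlapped 86.7% to 89.6% of the (AFX)1-only regions. The (AFX)1 lists held 17305, 20945 and 26811 and overlapped 63.4%, 71.6% and 84.6% of the (AFX)2-only regions in that order. The part of list length in the counts of absent regions was not tested. At the edge of the rule, the weakest peak that counted was the rank 7494 peak at Samm50 among (AFX)1-only regions and the rank 7497 peak at Csnk2a2 among (AFX)2-only regions. Just outside lay regions at Sucla2 and Rassf4, each missed because 1 list of the other line held it, at ranks 7473 and 7474.

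Both sets were poorer in promoters than the shared regions, and the (AFX)2-only set was the poorer. A transcription start lay within 1 kb of 104 of 235 (AFX)1-only regions (44.3%) and of 115 of 320 (AFX)2-only regions (35.9%), beside 69.8% of the regions in all 6 lists and 52.7% of the union. The start table used held no entry for the other line-only regions, 6 and 11 on chromosome 18. It also lacked the starts of some genes on other chromosomes. A region inside Tmem64, a gene of 20934 bp, had its nearest listed start 974 kb away. For a region inside Nxph3 (4721 bp) it was 72.7 kb away. A start here means a listed start, so shares at starts may be too low and distances too long. Over 10 kb from any start lay 32.8% of (AFX)1-only regions at 10 to 100 kb and 7.23% beyond, and 40.6% and 10.9% of (AFX)2-only regions. By the ends of protein-coding genes the shares within 1 kb were 44.4% and 38.4%, beside 54.2% of the union. With the top 5000 peaks the shares were 48.8% and 48.9%, with the order turned, and in the lists as deposited it was 24.1% and 12%. Protein-coding genes overlapped 173 (AFX)1-only regions and 230 (AFX)2-only regions. Exons and introns were not told apart here. For the regions that overlapped a gene and lay over 1 kb from any start, the median length of that gene was taken. It was 50.1 kb in 70 (AFX)1-only regions, 104 kb in 113 (AFX)2-only regions and 57.4 kb over the union. Long genes among the latter included the neurotrophin receptor gene Ntrk2 (327499 bp) and the transcription factor gene Nfia (540811 bp). The median width was 358 bp in (AFX)1-only, 403 bp in (AFX)2-only, 598 bp in all-6 and 404 bp in all union regions. A width here is the span of all kept peaks merged into a region. All-6 regions were merged from the peaks of more lists than line-only regions, which by itself can widen them. The union mixes regions held by different numbers of lists. These medians therefore do not show that the peaks at line-only regions were narrower. Peak widths within a list were not compared here.

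**Figure D2:**
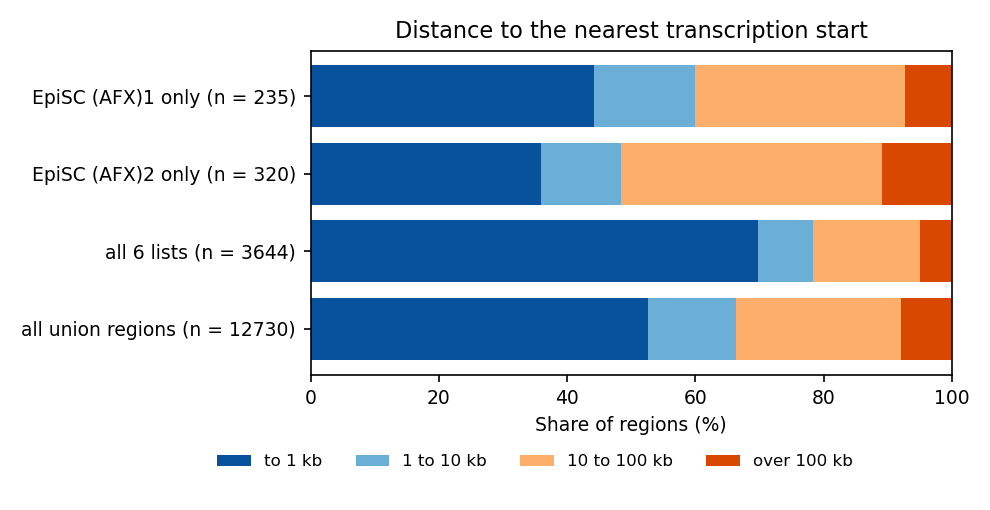
Share of regions (percent, horizontal axis) by distance to the nearest transcription start, for each line-only set, the regions in all 6 lists and all union regions, with the number of regions that had a start table in brackets. The dark blue part, within 1 kb, is shorter in both line-only sets than in the shared regions.

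A weaker peak in the other line was most common at starts. It was present in all 3 lists of the other line at 94 of 104 (AFX)1-only starts and at 85 of 131 (AFX)1-only regions farther away. For (AFX)2-only regions these counts were 93 of 115 and 87 of 205. No (AFX)1-only start and 5 (AFX)2-only starts lacked a peak in every list of the other line.

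The promoters of the 2 sets differed in median base content, with wide overlap. In the 250 bases before the start, the median GC content was 59.2% over 126 (AFX)1-only windows, 64% over 141 (AFX)2-only windows, 64% in the all-6 set and 52.4% over all 31396 promoters of the table. The middle 50% of windows ran from 52.5% to 66% and from 58.4% to 69.2% in the line-only sets. GGGCGG was present in 50.8% of (AFX)1-only, 75.2% of (AFX)2-only, 75.9% of all-6 and 33% of all promoters. CCAAT was present in 54.8%, 32.6%, 58.8% and 33.7% of them. Thus the (AFX)1-only promoters were low in GGGCGG and the (AFX)2-only promoters low in CCAAT, each against the shared promoters. The whole lists leaned the same way by far less. Over the promoters in its kept peaks, a library had GGGCGG in 72.2% to 72.6% and CCAAT in 51.6% to 52% for (AFX)1, and in 74.4% to 75.5% and 49.5% to 50% for (AFX)2. The FS2 lists had 69.7% to 71.2% and 52.6% to 53.2%, and the ES lists 73.9% to 74.6% and 49.3% to 50.9%. The part of base content in the choice of line-only promoters was not tested. Other searched motifs were rarer: the ETS motif CCGGAAG was in 13.5% and 7.8% of the windows, beside 14.6% of all-6 and 7.01% of all promoters. The E-box CACGTG was in 8.73% and 7.8%, beside 8.76% and 6.02%. The octamer ATGCAAAT was in 0 and 6 windows (0 and 4.26%), beside 1.45% and 1.61%. Each was searched on both strands.

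The other first-set lists, cut to 7500 peaks in the same way, held the sets in different measure. The FS2 lists held 67.6%, 69.7% and 58.9% of the (AFX)1-only regions but 27.5%, 21.5% and 27.5% of the (AFX)2-only regions, beside 44.9% to 47.0% of the union. The ES lists held 34.4%, 35.7% and 29.5% against 16.9%, 20.2% and 19%, beside 36.0% to 37.4% of the union. The EpiSC (AF) lists ran the other way, with 41.1%, 43.2% and 43.6% of (AFX)1-only and 52.9%, 56.5% and 55.6% of (AFX)2-only regions, beside 52.6% to 53.3% of the union. So did the FS1 lists, with 45.2%, 41.5% and 37.3% against 46.5%, 47.7% and 50.8%, beside 51.8% to 52.3%. So each FS2 and ES library held a larger share of the (AFX)1-only set, and each EpiSC (AF) and FS1 library a larger share of the (AFX)2-only set. The difference was smallest in FS1 replicate 1. Against the union, FS2 was high for (AFX)1-only and low for (AFX)2-only regions. ES and FS1 were below it for both sets, and EpiSC (AF) was below it for (AFX)1-only and slightly above it for (AFX)2-only regions. The Rd2 AFX lists, with a shortest peak of 110 bp against 150 bp in the first set, may not be alike in processing. They held 47.3% and 41.5% of (AFX)1-only and 30.8% and 29% of (AFX)2-only regions, beside 47.2% and 47.6% of the union.

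**Figure D3:**
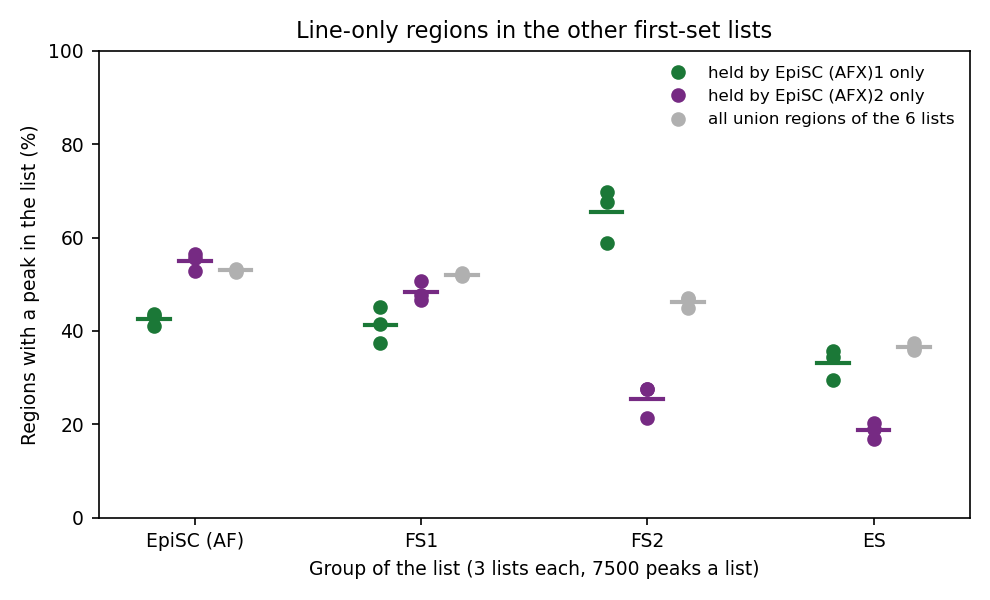
Percent of line-only regions (vertical axis) with a kept peak in each list of the EpiSC (AF), FS1, FS2 and ES groups. Points are libraries and bars their means, in green for (AFX)1-only, purple for (AFX)2-only and grey for all union regions. The FS2 lists held more of the green set than of the purple set.

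Read region by region, with a group counted as holding a region when at least 2 of its 3 lists did, FS2 but not FS1 held 92 of the 241 (AFX)1-only regions and 15 of the 331 (AFX)2-only regions. FS1 but not FS2 held 19 and 105. Both held 77 and 52, and neither held 53 and 159. Over the union, FS2 but not FS1 held 9.5%, FS1 but not FS2 15.7%, both 35.7% and neither 39.1%, beside 38.2%, 7.88%, 32% and 22% of (AFX)1-only and 4.53%, 31.7%, 15.7% and 48% of (AFX)2-only regions. At least 1 EpiSC (AF) list held 152 (63.1%) of the (AFX)1-only and 259 (78.2%) of the (AFX)2-only regions, beside 68.7% of the union. The lists as deposited differed in length. The FS2 lists (11796 to 14147 peaks) and ES lists (8044 to 10961) were short, the FS1 lists (23883 to 31263) long, and the (AFX)1 lists (17701 to 27485) on the whole shorter than the (AFX)2 lists (25641 to 29575). The EpiSC (AF) lists had 15505 to 24824 peaks and held more of the (AFX)2-only set. The part of list length in these shares was not tested.

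Few line-only regions were missing from all the other first-set lists. None of the 12 other first-set lists held 6 (AFX)1-only and 23 (AFX)2-only regions at equal length (2.49% and 6.95%, beside 12.6% of the union), while in the lists as deposited none of the 572 lacked a peak in all 12. The 6 lay at Mmp25, Maml3, Eogt and, 3 times within 73.9 kb, at 4930564D02Rik on chromosome 3. The 23 included the starts of Celf3 (an RNA-binding protein gene) and Lrrc38 and a region 3.33 kb from the homeobox gene Dlx5. Celf3 had ranks of 7049, 6636 and 7423 in (AFX)2, no peak in (AFX)1 and 1 other first-set peak, at rank 14537 in an FS1 list.

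The opposite pattern, presence in all 12 other first-set lists, was met at 3 (AFX)1-only and 2 (AFX)2-only regions, beside 11.2% of the union and 37% of the all-6 regions. Inside Pcca, which encodes a subunit of mitochondrial propionyl-CoA carboxylase, the region chr14:122568889-122569190 ranked 300, 128 and 164 in the (AFX)1 lists. It was among the strongest peaks of every other first-set list, with ranks of 89, 151 and 755 in EpiSC (AF), 72, 75 and 361 in FS1, 70, 75 and 46 in FS2, and 70, 51 and 54 in ES. No (AFX)2 list held a peak there at any rank, and neither Rd2 AFX list did. Reads and base sequence at these regions were not analysed here, so a peak missing from a list does not show closed chromatin. The region inside Cpeb4, a gene for a regulator of mRNA translation (chr11:31922608-31922896), repeated this: it ranked 178, 354 and 286 in (AFX)1, between 73 and 468 in the 12 other first-set lists, and was absent from all (AFX)2 and Rd2 AFX lists. The third, inside Nxpe4 (chr9:48217531-48218277), ranked 4913, 5031 and 4851 in (AFX)1 and 160, 183 and 202 in ES, again with no (AFX)2 or Rd2 AFX peak. The (AFX)2-only counterparts lay 0.042 kb from the end of the homeobox gene Hoxc13 and 17.3 kb from Gm14410, and each had a weaker (AFX)1 peak in at least 1 list.

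The strongest (AFX)2-only region had another holder pattern. At chr7:64036204-64036517, 94.4 kb from the nearest protein-coding gene Gm45988, the ranks were 153, 70 and 143 in (AFX)2 and 311, 337 and 131 in FS1. No list of (AFX)1, EpiSC (AF), FS2, ES or Rd2 AFX had a peak there. A region 72.8 kb from Spred2, an inhibitor of the ERK pathway (chr11:19851328-19851604), ranked 687, 263 and 401 in (AFX)2 and between 478 and 1689 in the EpiSC (AF), FS1 and FS2 lists, with no peak in any (AFX)1, ES or Rd2 AFX list. Inside Itga9, an integrin gene (chr9:118793320-118793688), (AFX)2 ranks were 246, 1501 and 329 and FS1 ranks 54, 60 and 48. The FS2 and EpiSC (AF) lists held it as well, at ranks of 251, 291 and 458 and of 1193, 820 and 385. There (AFX)1 had peaks at ranks 14925 and 16627 in 2 lists and none in the other, and ES had none.

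**Figure D4:**
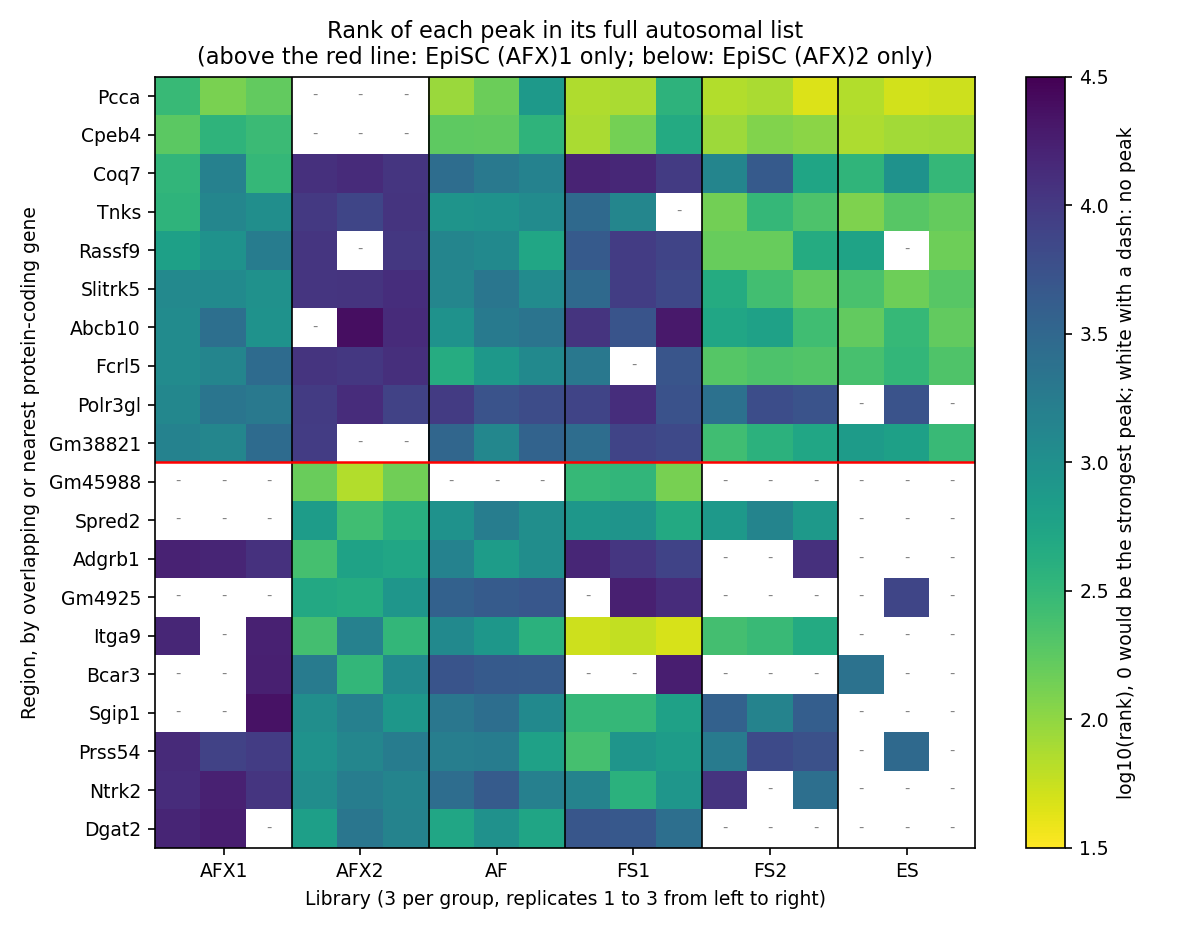
Rank of the peak at the 10 strongest line-only regions of each line (rows, named by the overlapping or nearest protein-coding gene) in every first-set list (columns). Yellow is a rank among the strongest peaks, dark blue a weak peak, on a log10 scale; white cells with a dash have no peak. The first rows above the red line, Pcca and Cpeb4, are strong in every group but AFX2, and the first row below it, Gm45988, is strong in AFX2 and FS1 alone.

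The 10 strongest regions of each line differed in kind. Of the 10 (AFX)1-only regions, 6 were at most 250 bp wide, 2 lay within 1 kb of a start (Coq7 and Polr3gl), 10 were held by all 3 FS2 lists, 8 by all 3 ES lists and 9 by all 3 EpiSC (AF) lists. All 3 FS1 lists held 2 of them, and 9 had no peak in either Rd2 AFX list. The region 169 kb from Tnks is an example, 224 bp wide, with ranks of 354, 1343 and 1030 in (AFX)1, 10177, 7514 and 11173 in (AFX)2, 137, 319 and 215 in FS2 and 121, 190 and 162 in ES. The others of this kind lay near Rassf9, Slitrk5, Abcb10, Fcrl5 and Gm38821. Of the 10 (AFX)2-only regions, none was at most 250 bp wide and none lay within 1 kb of a start. All 3 EpiSC (AF) lists held 9, all 3 FS1 lists 7, all 3 FS2 lists 4 and all 3 ES lists 0, and 7 had no ES peak in any list as deposited. Beside Spred2 and Itga9 they lay at Adgrb1, Gm4925, Bcar3, Sgip1, Prss54, Ntrk2 and Dgat2, the last encoding an enzyme of triglyceride synthesis.

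Narrow distal regions were also read by holder, with a width limit chosen after the values were seen. Regions at most 250 bp wide and over 1 kb from a start numbered 31 in the (AFX)1-only set (12.9%) and 13 in the (AFX)2-only set (3.93%), beside 12.6% of the union, so the (AFX)1-only share was at the background. All 3 ES lists held 24 of the 31 and 0 of the 13, all 3 FS2 lists 24 and 1, and all 3 FS1 lists 1 and 5. Either Rd2 AFX list as deposited had a peak at 2 of the 31. Among the 100 wider (AFX)1-only regions over 1 kb from a start, all 3 ES lists held 16 and all 3 FS2 lists 33, and 59 had an Rd2 AFX peak. The 49 narrow distal regions held by all 6 lists resembled the 31 in this: all 3 ES lists held 47, and 2 had an Rd2 AFX peak. They differed in FS1, where all 3 lists held 42 of the 49. Over the 1651 narrow distal union regions, all 3 ES lists held 125, or 7.57%. Of the 48 (AFX)1-only regions that all 3 ES lists held, 24 were thus narrow and distal.

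No (AFX)1-only region without any (AFX)2 peak lay within 1 kb of a start. There were 8: those in Pcca, Cpeb4 and Nxpe4, and 5 more inside Bbox1, Arsb, Capn8 and Esr1, which encodes an estrogen receptor, and near Mylk. All 8 had a peak in every ES list, at ranks of 51 to 1401. The 10 strongest of the 37 (AFX)2-only regions without any (AFX)1 peak were at Gm45988, Spred2, Gm4925, Ipo5, Nfia, Ctnnb1 (129 kb away, the beta-catenin gene), Tmem132d, Slc38a2, 1700001C19Rik and Cbln4. ES lists had a peak at 2 of these 10, Gm4925 and Ipo5.

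Regulators of pluripotency were near line-only regions about as often as other genes. Of 334 autosomal genes in 20 lists of pluripotency, signalling, lineage and chromatin genes, 8 (2.4%) had an (AFX)1-only region in the gene or within 20 kb, and 6 (1.8%) an (AFX)2-only region, beside 1.83% and 2.37% of all 20661 autosomal protein-coding genes. Core pluripotency genes (10), formative genes (11), BMP and Id genes (18), mesoderm genes (17), fibroblast genes (15), the 30 imprinted genes of the list and Polycomb and chromatin genes (23) had 0 in both lines. At the background shares each of these lists would hold less than 1 gene.

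The FGF pathway, which through ERK moves cells out of the naive state, contributed 2 of its 22 listed genes, both in (AFX)2 and both at a start. This was 9.09%, beside 2.37% of all autosomal protein-coding genes, and rests on 2 genes only. The 920 bp region at the Fgf4 start ranked 866, 2999 and 986 in (AFX)2 and 8906, 13445 and 8214 in (AFX)1. Other lists spread widely there: 2258, 1109 and 8575 in FS1, 3005, 6904 and 1982 in FS2, 7458, 8395 and 6095 in EpiSC (AF), and 8815, 377 and 3220 in ES. All 20 lists used had a peak there. That the (AFX)1 and (AFX)2 ranks lie apart follows from the rule, here and at every line-only region. At the start of Fgfr3, an FGF receptor gene, ranks were 5723, 6437 and 5225 in (AFX)2 and 8487, 17836 and 8886 in (AFX)1, with no ES peak. Of the 20 genes of the Myc and cell cycle list, 3 (15%) were near (AFX)2-only regions, beside the same 2.37%, and 1 (5%) near an (AFX)1-only region. The 3 were Ccnd2 (cyclin D2, 0.222 kb away), Cdk6 (12.6 kb away, at the Fam133b start) and Trp53 (14 kb away, at Atp1b2). The Ccnd2 region had EpiSC (AF) ranks of 4704, 11563 and 8266 and no FS2, ES or Rd2 AFX peak.

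Wnt genes, active in the primitive streak and in EpiSC differentiation, contributed 2 of 32 (6.25%), both in (AFX)1, beside 1.83% of all autosomal protein-coding genes. This too rests on 2 genes only. The start of Wnt3, the ligand needed to begin gastrulation, ranked 3883, 6641 and 4959 in (AFX)1 and 7594, 9327 and 11022 in (AFX)2, with no ES peak. Replicate 1 of (AFX)2 was just past the limit of 7500. A region inside Apc, an antagonist of beta-catenin, ranked 6160, 3833 and 5839 against 14484, 10950 and 18561. Smad7, which inhibits Nodal and Activin signalling, had a region 6.08 kb away that ranked 5548, 5278 and 7168 against 7683, 8826 and 9491. The region between the retinoic acid binding protein gene Crabp2 and the neural gene Nes ranked 3313, 5613 and 3441 against 9724, 10038 and 7965. Others were inside Mycl and Dab2, the latter 188 bp wide with ES ranks of 213, 553 and 482, and 12.8 kb from Tet3, at the Bola3 start.

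Further starts were picked out after their values were seen. The start of Slc38a4, an imprinted amino acid transporter gene that the imprinted list did not hold, ranked 2620, 1989 and 3626 in (AFX)1, 3584, 6586 and 2473 in EpiSC (AF) and 3691, 2258 and 3524 in FS2. It had 1 weak (AFX)2 peak, at rank 22635, and none in FS1, ES or Rd2 AFX. Neurod1, a neurogenic transcription factor gene, ranked 5478, 2428 and 6281 in (AFX)2 and 16948 and 8715 in 2 (AFX)1 lists, and no FS2, ES or Rd2 AFX list had a peak. Both sets had a region at or near Chrna7, an acetylcholine receptor gene on chromosome 7. Its start was (AFX)1-only, with ranks of 5277, 5155 and 2716. A region 128 kb from that start, and 13.8 kb outside the gene, was (AFX)2-only, with ranks of 6078, 6527 and 7393 and no (AFX)1 peak. Zinc finger genes named Zfp held 6 of the 115 (AFX)2-only starts (Zfp184, Zfp712, Zfp365, Zfp316, Zfp808 and Zfp628) and 3 of the 104 (AFX)1-only starts (Zfp952, Zfp809 and Zfp747), beside 2.34% of union regions at starts.

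Line-only regions were found on every autosome and were unevenly spread. Chromosome 3 held 21 (AFX)1-only and 8 (AFX)2-only regions, and chromosome 11 held 24 and 17. Chromosome 5 held 11 and 32, chromosome 6 held 9 and 24, chromosome 7 held 14 and 33, and chromosome 10 held 10 and 24. As a share of its union regions, chromosome 3 was highest for (AFX)1-only (2.96%) and lowest for (AFX)2-only (1.13%). Chromosome 5 was highest for (AFX)2-only (3.62%), with 1.24% for (AFX)1-only. Chromosome 11 had 2.5% (AFX)1-only and 1.8% (AFX)2-only, chromosome 6 had 1.3% and 3.5%, and chromosomes 7 and 10 each had 1.4% and 3.4%. Over all autosomes the shares were 1.85% and 2.54%. The kept peaks leaned too: the (AFX)1 lists held 412 to 420 on chromosome 3 and the (AFX)2 lists 353 to 387. On chromosome 6 they held 357 to 374 and 385 to 419, and on chromosome 7 527 to 561 and 581 to 595. On chromosomes 5, 10 and 11 the ranges overlapped.

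**Figure D5:**
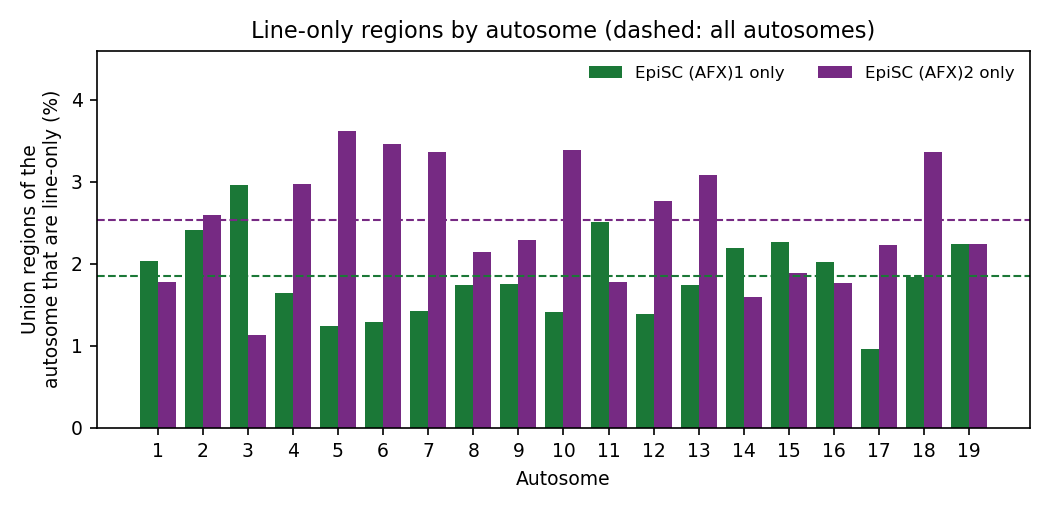
Percent of the union regions of each autosome (horizontal axis) that were (AFX)1-only (green) or (AFX)2-only (purple), with dashed lines at 1.85% and 2.54% for all autosomes. Chromosome 3 leans to (AFX)1, and chromosomes 5, 6, 7 and 10 lean to (AFX)2.

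Some regions lay together, with at least 3 of a line within 1 Mb. There were 7 such runs of (AFX)1-only regions with 25 regions and 9 runs of (AFX)2-only regions with 33. The run with most regions in (AFX)1 was chr3:95985305-96905477, with 6 of its 30 union regions, at Plekho1, BC107364, Polr3gl, Itga10 and Gpr89. On chromosome 2 (chr2:152177184-152391405), 4 of 6 union regions were (AFX)2-only and none was held by all 6 lists. They lay near Tcf15, which is linked to the exit from naive pluripotency, at the starts of Csnk2a1 and Trib3, and near Sox12. The Trib3 start ranked 6083, 6253 and 4242 in (AFX)2 and 15209, 10997 and 8142 in (AFX)1. A run of 5 on chromosome 10 (chr10:80676201-81349381) held the starts of the kinase gene Mknk2 and the lamin gene Lmnb2, and Gng7, Diras1 and Hmg20b, in a stretch with 33 union regions. On chromosome 12, 3 of 4 union regions of a stretch with the near-identical genes Fam177a and Fam177a2 and Srp54c were (AFX)2-only. Reads from near-identical copies may have been split between them, so these are uncertain.

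Markers were read from peaks within 1 kb of a gene end in the lists as deposited. Pou5f1 and Sox2, core pluripotency genes, had a peak in all 6 AFX lists. Of the 10 core genes, 7 to 10 had a peak in (AFX)1, 8 in each (AFX)2 list and 2 or 3 in ES. Of 13 naive genes, 7 or 8 had a peak in (AFX)1, 7 in each (AFX)2 list and 5 to 7 in ES. Klf2, Klf5, Tbx3 and Fgf4 were among them in every one of these lists, so the naive list as a whole did not set the EpiSCs apart from ES cells. Zfp42, another naive marker, had none in the AFX lists and ranked 6229, 913 and 1247 in ES. Tfcp2l1, of the same list, went the other way, with a peak in all 6 AFX lists and none in ES. Esrrb had a peak in 1 (AFX)1 list, at rank 19340, and none in ES. Of 16 primed genes, 7 to 10 had a peak in (AFX)1, 8 to 12 in (AFX)2 and 0 or 1 in ES. Of 11 formative genes, 8 had a peak in each AFX list and 1 to 4 in ES. The ES lists were far shorter than the AFX lists, at 7803 to 10571 autosomal peaks, and the part of this was not tested. The fibroblast gene Col3a1 had no peak in any list, while 6 to 9 of 15 fibroblast genes had a peak in (AFX)1. In (AFX)2 this was 7 or 8, and in ES 0 or 1. For neurectoderm genes the counts in (AFX)1, (AFX)2 and ES were 12 to 14 of 20, 14, and 0 to 2. For mesoderm genes they were 6 to 8 of 17, 8 or 9, and 2 or 3. For endoderm genes they were 1 to 5 of 13, 3 or 4, and 0 or 1. The part of other cell types in the line-only regions was not tested.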

How the data were processed

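ATAC-seq was deposited as 26 broadPeak lists, 1 per library; 18 first-set lists and the 2 Rd2 AFX lists were used. Per the submitters' processing notes, tools were Trim Galore, Bowtie, Picard and MACS2 and the build was mm10; versions, thresholds and any control are not given in the sources used here. Each deposited peak carries the authors' −log10 p and fold enrichment, a ratio whose reference is not stated; both were used only to rank peaks within a list. The shortest peak was 150 bp in the first set and 110 bp in the Rd2 AFX lists, so those sets may not be alike in processing, which was not tested. No read counts were used, so depth is unknown and no counting interval is given.

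Autosomal peaks were ranked by −log10 p and the top 7500 per list kept. Overlapping peaks were merged in Python 3.11.15 (pandas 2.3.3, numpy 2.4.6), and any overlap of 1 bp made a region present in a list. The region code was checked on simulated lists with planted regions. Genes, starts and promoters came from RefSeq tables of GRCm38.p6, which hold no starts for chromosome 18 and lack those of some genes elsewhere. Libraries were grouped by source label.

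The members, gene lists and rules were chosen with earlier results of these data known. Regions named were, per line, the 10 of highest mean rank, the 10 of highest rank without any peak in the other line, those within 20 kb of listed genes, and runs of at least 3 within 1 Mb; others are marked as picked after their values were seen or fall under counts of the holder patterns, rule edges and marker genes.

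Alternatives were the top 5000 peaks, the lists as deposited, ranking by fold enrichment, cover of at least 50% of a region, merging within 200 bp, and leaving out each list. The other Rd2 lists were not analysed here.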

Additional observations from a re-analysis of the deposited data

How the results depend on the processing

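The 6 results checked were the 2 counts of line-only regions, the shares near a gene end and the shares held by an EpiSC (AF) list. Of 30 values under other settings, 24 stayed within 1.5 times the count or inside the exact 95% binomial interval of the share. With the lists as deposited, the (AFX)2-only count was 1186 instead of 331, the shares near a gene end 24.1% for (AFX)1 and 12% for (AFX)2, and the share of (AFX)2-only regions held by an EpiSC (AF) list 59.9%; the (AFX)1-only count was 228. The (AFX)2-only share near a gene end was 48.9% with the top 5000 peaks and 31.8% with ranking by fold enrichment, against 48.8% and 48.1% for (AFX)1, so its order against (AFX)1 was not kept with 5000 peaks. Fewer lists have to be passed when 1 list is left out. Leaving out each of the 6 lists in turn gave 334 to 461 (AFX)1-only and 453 to 535 (AFX)2-only regions, with 44.9% to 50.8% and 37.2% to 44.4% near a gene end, and 53.4% to 69.4% and 70.7% to 81.2% held by an EpiSC (AF) list. The (AFX)1-only count passed 1.5 times 241 without (AFX)1 replicate 1 (428), 2 (415) or 3 (461), and the (AFX)2-only count passed 1.5 times 331 without (AFX)2 replicate 1 (535), 2 (514) or 3 (520) or (AFX)1 replicate 3 (499). No paired analysis was possible because the results come from no test. Depth was unknown, and the absence of a peak does not show closed chromatin.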

Other observations

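Genes for small RNAs were looked at after the values were seen. Within 250 bp of an (AFX)1-only region lay 3 of the 18 union regions at genes annotated as small nuclear RNAs (Gm22614, Rnu3b3 and Rnu3b4, the last pair being copies of the U3 RNA gene), 2 of the 12 at small nucleolar RNA genes (Snord49b and Snora57), the 1 at the telomerase RNA gene Terc, 1 of the 46 at microRNA genes (Mir5136) and 1 of the 24 at transfer RNA genes (n-TIaat6). Within 250 bp of an (AFX)2-only region lay 1 of the 24 at transfer RNA genes (n-TMcat17) and none of the other kinds. The transfer RNA and microRNA shares of (AFX)1-only regions (0.415% each) rest on 1 region each, beside 0.184% and 0.352% of the union. Of these, the U3 and transfer RNA genes occur in near-identical copies, among which reads may have been split.

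The sex chromosomes were outside the comparison. Peaks on chromosome X made up 1.87% to 2.19% of the (AFX)1 lists and 2.62% to 2.83% of the (AFX)2 lists, and peaks on chromosome Y 0.209% to 0.258% and 0.105% to 0.119%, so the libraries of the lines did not overlap in either share. In the Rd2 AFX lists the shares were 1.88% and 2.15% for X and 0.0444% and 0.056% for Y.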
